A study of Mus musculus with 13 samples.

Results

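The segment of mouse chromosome 2 from before Mtx2 to just beyond Hnrnpa3 (chr2:74770000-75670000, mm10), called the Mtx2 to Hnrnpa3 interval below, was described region by region from ATAC-seq, which finds open chromatin by where the transposase Tn5 can insert its adapters. It holds most of T-DOM, the regulatory domain on the telomeric side of the HoxD gene cluster. Every accessible region that the authors called there in any of 13 libraries was taken. Regions of different libraries that overlapped by at least 1 bp were merged, which gave 122 regions of 276965 in the whole series. They are numbered R001 to R122 from the Mtx2 side to the Hnrnpa3 side. R001 to R004 lie before the start of Mtx2 and R122 lies beyond the end of Hnrnpa3. Of these, 119 were called in at least 1 of the 12 libraries that fall into groups, and 3 only in a further wt DFL library.

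The tissues were forebrain (FB) and the distal (DFL) and proximal (PFL) parts of the forelimb, from B6CBAF1 embryos at E12.5, with 2 replicates of wild type (wt) and 2 of II1TDOM allele 542 per tissue and 50000 cells per library. Each replicate was a pool of several embryos. Allele 542 is a single line in which the distal limb enhancer II1, an HBB promoter and a LacZ reporter were placed as 1 copy into an intron of the long non-coding RNA gene 2600014E21Rik, inside T-DOM. By the study's account, the 542 embryos used for ATAC-seq were homozygous for this insertion. No other allele or treatment distinguishes the groups. The wt reads were mapped to mm10 and the 542 reads to a genome with the insertion, so that genotype and mapping genome cannot be told apart. In 542 the insertion was left out and 4218 bp were subtracted beyond it. The further wt DFL library is, by its label, an earlier sample processed again, and it enters no group.

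T-DOM carries enhancers that drive Hoxd genes in the future arm and forearm. In the future hand these enhancers are switched off, HOX13 proteins bind across the domain, and the domain on the other side of the cluster (C-DOM) takes over. Mtx2 encodes metaxin 2, a protein of the mitochondrial outer membrane that takes part in protein import, and Hnrnpa3 encodes an RNA-binding protein of the hnRNP family. Both are expressed broadly and flank an interval that otherwise holds only non-coding genes and pseudogenes.

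The level of a region is given as the fold, which is the authors' ratio of tags at the strongest summit to the local background of the same library. Because the fold was not normalised between libraries, its percentile among all regions of the same library is given beside it. A region that was not called has no fold, and a region can be closed, or open below the calling limit, in such a library.

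The places at which the locus was edited are shown first, because all distances below are counted from the integration site. Each guide was read from the study's own list, matched mm10 chromosome 2 at 1 place, and is printed with the bases that follow it in the genome, the PAM, in capitals. The first guide opened the integration site. The next pair delimits the deletion from Mtx2 to the site, and the last pair the deletion from the site to Hnrnpa3. Neither deletion was present in the ATAC-seq samples.
r4g9, chr2:75269597-75269616, minus strand: gcagtgcgcctagtgacggaCGG
Mtx2_telo, chr2:74880955-74880974, plus strand: catgcagtgatcatacgttgGGG
II1TDOMr4_cent, chr2:75267413-75267432, plus strand: atttatcttaagccgtggagCGG
II1TDOMr4_telo, chr2:75270571-75270590, plus strand: tttgtgctcaaggaaatcgtTGG
Hnrnpa3_cent, chr2:75618301-75618320, plus strand: accaccgctaatgagcaccaGGG

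The first deletion spans 386.5 kb, by the cuts expected 3 bp from each PAM, and holds 55 of the 122 regions. The second spans 347.7 kb and holds 53 regions. Of 14 regions called in all 8 limb libraries and in no FB library, 5 lay in the first and 8 in the second.

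The upstream sequences of the flanking genes follow, from RefSeq (GRCm38.p6, the assembly of mm10), because the regions over them were open in every library. Capitals mark each CpG. The sequence stops before the first annotated transcript start.
Mtx2 upstream, chr2:74825562-74825802, plus strand: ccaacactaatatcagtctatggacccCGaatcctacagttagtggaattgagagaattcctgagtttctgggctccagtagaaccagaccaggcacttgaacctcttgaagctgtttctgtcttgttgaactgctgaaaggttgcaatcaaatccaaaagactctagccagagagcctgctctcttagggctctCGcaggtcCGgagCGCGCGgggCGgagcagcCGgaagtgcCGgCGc
Hnrnpa3 upstream, chr2:75659009-75659243, plus strand: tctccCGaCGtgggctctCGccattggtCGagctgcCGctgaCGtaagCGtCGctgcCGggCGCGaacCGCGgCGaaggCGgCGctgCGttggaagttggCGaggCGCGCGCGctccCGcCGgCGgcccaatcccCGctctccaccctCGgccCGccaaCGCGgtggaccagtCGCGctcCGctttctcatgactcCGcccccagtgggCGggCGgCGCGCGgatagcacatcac
The Mtx2 stretch of 241 bp held 10 CpG and was 53.1% G or C. The Hnrnpa3 stretch of 235 bp held 39 CpG and was 73.2% G or C.

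Windows of 300 bp centred on the summit are shown for the region that leads each pattern described below. R019 was called in all libraries and was higher in PFL, R078 was higher in DFL, R059 was found in DFL but not PFL, R023 in PFL but not DFL, R029 in limb but not FB, and R089 in FB but not limb. Capitals mark matches, on either strand, to 3 short motifs: CAATAAA for HOX13, TGACAG for MEIS and the core motif of CTCF, none of which overlapped another in these windows.
R019 window, chr2:74964403-74964702, plus strand: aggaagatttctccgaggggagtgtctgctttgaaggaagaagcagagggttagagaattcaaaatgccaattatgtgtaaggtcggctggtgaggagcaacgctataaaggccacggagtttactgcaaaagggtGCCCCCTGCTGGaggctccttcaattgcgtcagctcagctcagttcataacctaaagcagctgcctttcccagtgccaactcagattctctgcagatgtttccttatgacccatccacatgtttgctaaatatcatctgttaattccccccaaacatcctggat
R078 window, chr2:75395905-75396204, plus strand: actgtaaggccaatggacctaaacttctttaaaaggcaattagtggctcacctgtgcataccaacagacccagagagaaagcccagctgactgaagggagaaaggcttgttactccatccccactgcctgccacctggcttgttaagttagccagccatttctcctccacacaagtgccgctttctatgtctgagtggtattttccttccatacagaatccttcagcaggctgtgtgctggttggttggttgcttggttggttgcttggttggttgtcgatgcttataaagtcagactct
R059 window, chr2:75252835-75253134, plus strand: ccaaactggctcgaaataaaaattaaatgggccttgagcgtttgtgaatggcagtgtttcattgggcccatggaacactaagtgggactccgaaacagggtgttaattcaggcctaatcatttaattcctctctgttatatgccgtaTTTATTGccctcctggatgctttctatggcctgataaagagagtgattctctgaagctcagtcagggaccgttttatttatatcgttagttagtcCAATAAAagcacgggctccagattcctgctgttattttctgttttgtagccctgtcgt
R023 window, chr2:74993819-74994118, plus strand: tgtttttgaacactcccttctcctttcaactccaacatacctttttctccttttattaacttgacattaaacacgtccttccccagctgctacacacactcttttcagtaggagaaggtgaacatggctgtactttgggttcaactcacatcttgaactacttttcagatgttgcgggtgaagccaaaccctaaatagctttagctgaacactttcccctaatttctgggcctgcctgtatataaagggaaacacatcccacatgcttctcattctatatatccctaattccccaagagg
R029 window, chr2:75029399-75029698, plus strand: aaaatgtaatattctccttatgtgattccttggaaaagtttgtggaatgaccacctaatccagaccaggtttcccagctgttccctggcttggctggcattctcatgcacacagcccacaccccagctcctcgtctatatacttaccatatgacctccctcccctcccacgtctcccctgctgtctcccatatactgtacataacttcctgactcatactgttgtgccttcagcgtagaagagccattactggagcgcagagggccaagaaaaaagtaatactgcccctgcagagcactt
R089 window, chr2:75442643-75442942, plus strand: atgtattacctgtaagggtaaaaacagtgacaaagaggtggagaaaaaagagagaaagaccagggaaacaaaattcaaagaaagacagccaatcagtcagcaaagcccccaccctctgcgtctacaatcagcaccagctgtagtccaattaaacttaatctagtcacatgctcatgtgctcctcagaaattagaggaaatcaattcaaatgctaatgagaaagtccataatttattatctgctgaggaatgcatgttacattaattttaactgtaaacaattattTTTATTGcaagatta

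R059 held CAATAAA on both strands, and the nearer match began 3 bp before its summit. R019 held the CTCF motif, on the minus strand, 14 bp before its summit. R089 held 1 match to CAATAAA, 135 bp from its summit, and the windows of R078, R023 and R029 held none of the 3 motifs. Over the genome, 7.53% of 276959 summit windows held CAATAAA, 22.7% TGACAG and 4.52% the CTCF motif. Of the 122 windows of the interval, 15 (12.3%), 17 (13.9%) and 6 (4.92%) did. Among regions called in all 4 DFL and no PFL library, the genome share with CAATAAA was 18.1% of 5406, against 6.73% of 3922 regions of the reverse pattern. In the interval, 1 of 2 such DFL regions and 0 of 3 such PFL regions held it. Of the 8 regions called in all FB and no limb library 3 held it (37.5%, against 5.57% over the genome), and of the 14 called in all limb and no FB library 1 did (7.14%, against 11.4%). A match is a description of the letters and not a measured binding site.

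The number of regions was highest in wt PFL and lowest in FB. There were 57 and 57 regions in wt DFL, 44 and 44 in 542 DFL, 67 and 69 in wt PFL, 46 and 51 in 542 PFL, 41 and 35 in wt FB, and 30 and 33 in 542 FB. Libraries also differed in how many regions were called over the genome, from 85067 to 131691, and in estimated depth, from 37490000 to 77980000 tags. Per 10000 regions of the library, the value was 4.79 ± 0.477 (SD, n = 4) in DFL, 5.74 ± 0.6096 (SD, n = 4) in PFL and 3.44 ± 0.316 (SD, n = 4) in FB. All 8 limb libraries lay above all 4 FB libraries, between 4.38 and 6.22 against 2.99 and 3.73. DFL and PFL overlapped. By genotype the mean over tissues was 4.94 in wt and 4.37 in 542. In DFL and FB the ranges of the genotypes did not overlap, and in PFL they did. The DFL values of wt were 4.82 and 5.45 against 4.38 and 4.501 in 542, and the PFL values of wt were 5.89 and 6.22 against 4.85 and 5.995. No test was made on these values.

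**Figure D1:**
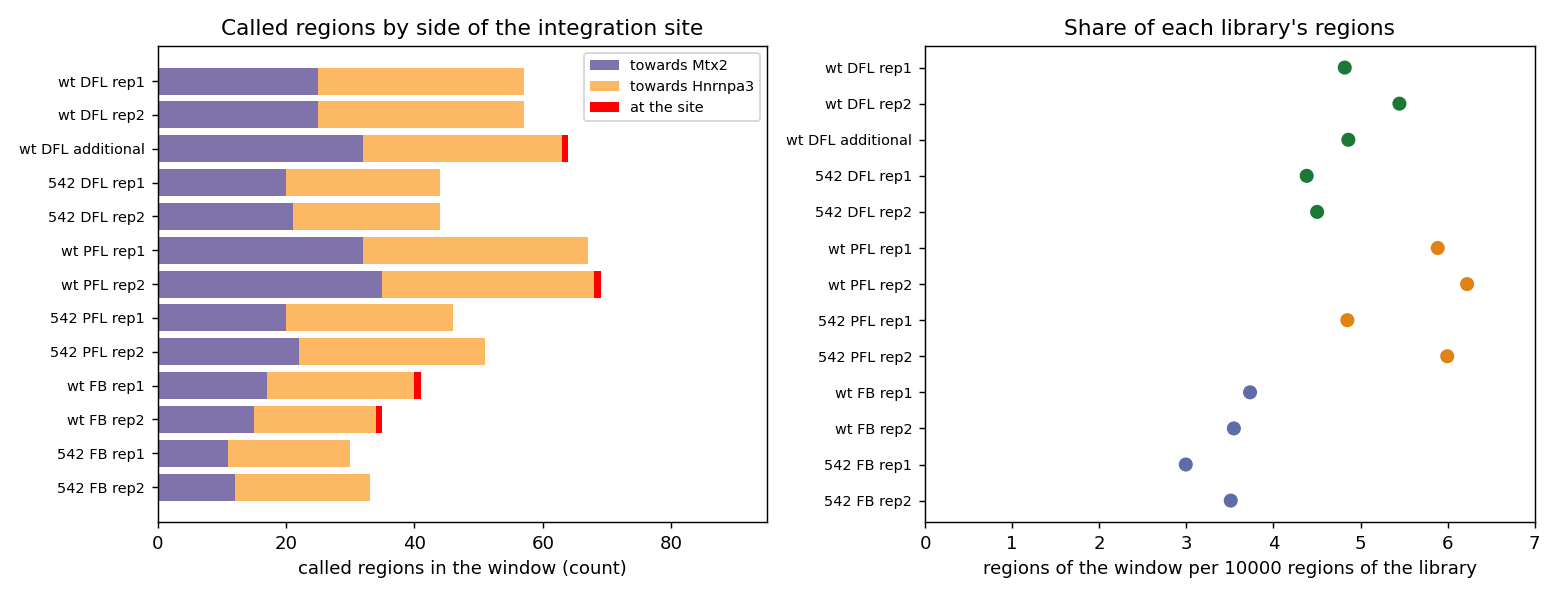
Called regions of the Mtx2 to Hnrnpa3 interval in each of 13 libraries. Left, bars give the count of regions, coloured by side of the integration site. Right, points give the regions per 10000 regions of the same library, coloured by tissue. All FB libraries lie below 4 per 10000 and all limb libraries above 4.

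The site divided the regions into 61 on the Mtx2 side, 60 on the Hnrnpa3 side and 1 at the site itself. The share on the Hnrnpa3 side was 54.8% ± 1.83 (SD, n = 4) of regions in DFL, 53.5% ± 3.95 in PFL and 60.1% ± 3.98 in FB. These shares depended on the calling limit. With the 50000 strongest regions of each library and at a −log10 q of at least 10, DFL lay above PFL by 9.608 and 8.894 percentage points in place of 1.24, and limb minus FB was -16.36 and -12.91 points in place of -5.93. Both 542 FB libraries had the highest shares, 63.3% and 63.6%, against 57.5% and 55.9% in wt FB. Between the genotypes, means over tissues were 57.9% in 542 and 54.4% in wt. By annotation, 83 regions were intergenic, 31 lay in introns and 8 overlapped exons, and the median width was 512.5 bp.

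Most regions were found in few libraries. Of 119 regions, 27 were called in a single grouped library (22.7%, against 30.4% over the genome) and 4 in all 12 (3.36%, against 10.8%). The 27 single-library regions had a median width of 290 bp and a median percentile of 20.7, whereas 27 regions called in 8 or more libraries had a median width of 965 bp and a median percentile of 62.7. Single-library regions were thus the narrower and weaker ones. A merged region spans the calls of all its libraries, so its width can only grow with their number. Over the genome the median widths of the same sets were 246 bp and 936 bp. The count of tags under a summit, recovered from the fold and the p-value, ran from 12 to 411 in this interval, with library medians of 22 to 56.

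**Figure D2:**
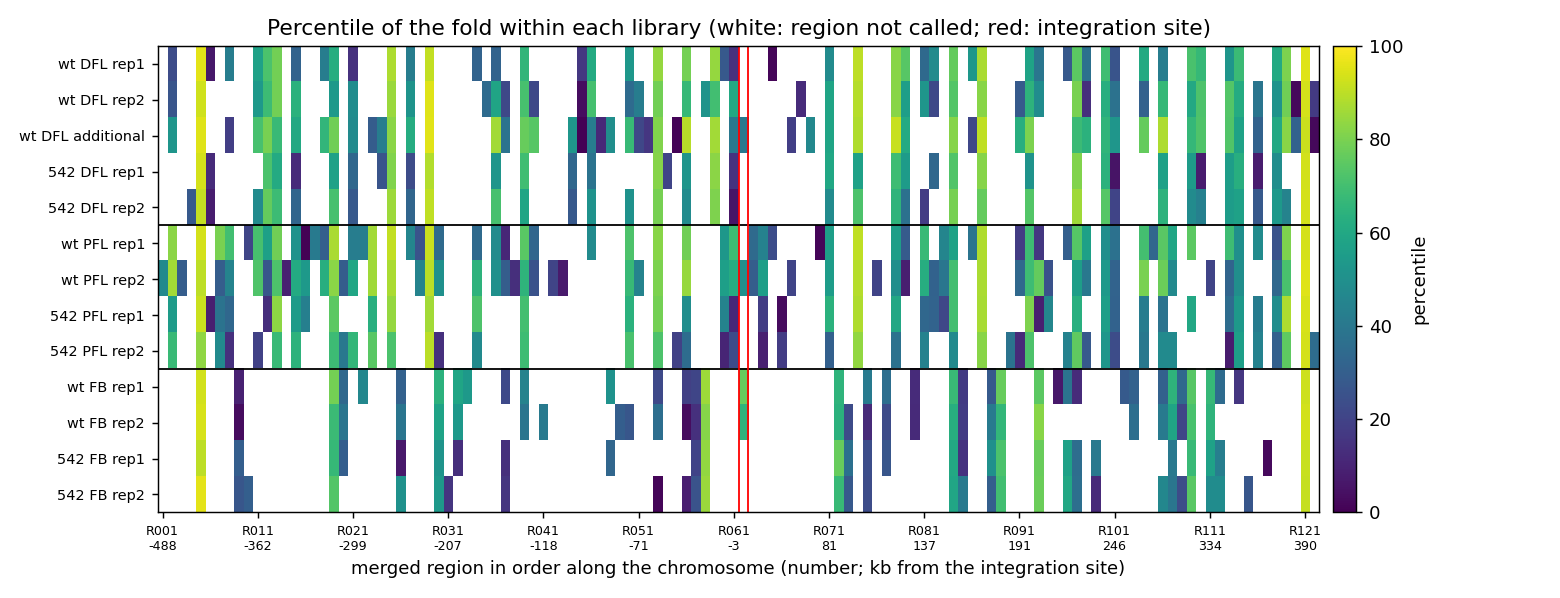
Percentile of the fold within the library (colour, 0 to 100) for each of 122 merged regions in chromosomal order (x axis, with the distance from the integration site in kb) and each of 13 libraries (y axis, grouped by tissue). White marks regions that were not called. Columns filled from top to bottom are R005 (Mtx2), R019, R084 and R121 (Hnrnpa3), and many strong columns of the limb libraries are white in FB.

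The 2 strongest regions open in every tissue were the starts of the flanking genes. R005 (chr2:74825423-74826504, first exon of Mtx2) had a fold of 15.7 and 13.7 in wt DFL, 13.5 and 12.46 in 542 DFL, 13.2 and 10.7 in wt PFL, 13.4 and 8.99 in 542 PFL, 15.3 and 15.8 in wt FB, and 12.8 and 18.0 in 542 FB. It stood between percentile 83.5 and 96.0 in the grouped libraries. R121 (chr2:75658573-75660030, over the start of Hnrnpa3 and of the miRNA gene Gm24574) had folds of 14.2 ± 0.675 in DFL, 14.1 ± 0.730 in PFL and 14.6 ± 0.540 in FB (SD, n = 4 each). Its percentile stayed between 91.4 and 95.1, and no tissue stood apart. DFL and PFL differed by 0.23 ± 0.13 (SE) on the log2 scale at R005 (limma, adjusted p = 0.334) and by -0.03 ± 0.09 at R121 (adjusted p = 0.897).

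Other starts inside the interval were called in fewer libraries. R039 (chr2:75137709-75139088), shared by the starts of the long non-coding RNA genes 2600014E21Rik and Gm13652, was called in all 8 limb libraries at percentiles of 58.7 to 74.6. In FB it was called in both wt libraries, at 44.6 and 38.9, and in neither 542 library. R118 (chr2:75633487-75634200), near the start of the pseudogene Gm13655, was called in all 8 limb libraries and in no FB library. R048, near the start of the long non-coding RNA gene A330043C09Rik, was called in 1 wt FB library, 1 542 FB library and the further wt DFL library. R038 and R070, near starts of Gm13652 and Gm37243, were each called in 1 PFL library only.

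Besides both gene starts, 2 intergenic regions were called in all 12 libraries. R019 (chr2:74964390-74964887, 138750 bp from the nearest start of a coding gene, Mtx2) is a region with the CTCF motif near its summit, and CTCF is the protein that marks many domain borders and loop anchors. R084 (chr2:75422612-75424300) lay 153.4 kb beyond the site, with folds of 7.17 ± 0.65 in DFL, 5.49 ± 0.97 in PFL and 5.91 ± 0.38 in FB (SD, n = 4 each). Limb and FB did not differ at the threshold in any of the 4 regions that could be tested, with log2 differences of -0.12 to 0.15 (limma, adjusted p of 0.114 to 0.615, and 1 of 4 with an unadjusted p under 0.05). Over the genome 17.3% of 28416 regions passed as higher in limb and 17.2% as higher in FB. Without wt FB replicate 2, 1 of 5 regions passed as higher in limb, and without 542 FB replicate 1, 2 of 7 did. Only regions called in every library can be fitted, so this test leaves out all regions that were absent from a tissue.

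Presence was compared between limb and forebrain for all regions. In all, 14 regions were called in all 8 limb libraries and in no FB library, which is 11.8% of the 119, against 3.82% of 262893 regions over the genome. With the 50000 strongest regions, at a −log10 q of at least 10, and where 50% of the merged region had to be covered, the 14 became 9 each time. With at least 1 limb library and no FB library there were 71 (59.7%, against 47.0%). Of the 14 regions, 5 lay on the Mtx2 side and 9 on the Hnrnpa3 side. Fold values of the strongest of them reached into the range of the Mtx2 start.

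R029 (chr2:75029064-75030072, 240.0 kb from the site towards Mtx2) had the highest mean percentile, 90.3. Its fold was 11.6 and 15.6 in wt DFL, 10.7 and 11.9 in 542 DFL, 12.1 and 10.6 in wt PFL, and 10.1 and 11.4 in 542 PFL. The DFL and PFL libraries overlapped, and the tissues differed by 0.11 ± 0.13 (SE) on the log2 scale (limma, adjusted p = 0.681). R025 (chr2:74999923-75000931) followed, with folds of 9.42 ± 0.777 in DFL and 9.25 ± 1.96 in PFL (SD, n = 4 each). The log2 difference between DFL and PFL was -0.02 ± 0.12 (limma, adjusted p = 0.959). Neither region differed between distal and proximal cells at the threshold, and 2 SE on either side of the estimate spanned -0.15 to 0.36 at R029 and -0.25 to 0.22 at R025.

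On the Hnrnpa3 side R087 (chr2:75439320-75440647), in an intron of the long non-coding RNA gene Gm13658, had folds of 8.64 ± 0.939 in DFL and 9.67 ± 0.79 in PFL. R074 (chr2:75375946-75377250, 107.3 kb beyond the site) had folds of 11.1 and 11.2 in wt DFL, 4.98 and 6.80 in 542 DFL, 11.3 and 10.1 in wt PFL, and 11.1 and 9.04 in 542 PFL. The 542 DFL libraries were thus the lowest of the 8, and the wt DFL libraries lay within the range of wt PFL. Within 542, the difference of DFL from PFL was -0.80 ± 0.16 (SE) on the log2 scale (limma, adjusted p = 0.0345), while within wt the difference was -0.01 ± 0.16 (adjusted p = 0.987). The difference between the genotypes was itself -0.79 ± 0.23 and did not pass (limma interaction, adjusted p = 0.503, unadjusted p = 0.0094). R013 and R092 completed the leading 6, at mean percentiles of 73.5 and 67.2.

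The reverse pattern, all 4 FB libraries and no limb library, was seen in 8 regions, 6.72% of the 119 against 6.43% over the genome. With the 50000 strongest regions and at a −log10 q of at least 10 there were 3 and 5. R089 (chr2:75442628-75443252) had folds of 8.17 and 6.38 in wt FB and 7.09 and 7.23 in 542 FB. R072 (chr2:75352171-75353007) had 6.07 and 6.10 in wt FB and 8.16 and 6.85 in 542 FB. The remaining regions (R009, R026, R057, R075, R085 and R088) were weaker, with mean folds of 2.98 to 3.91 and percentiles of 3.18 to 50.4 (n = 4 each). R058 (chr2:75245776-75246687), named after its values were seen, was the strongest FB region outside the gene starts, at a fold of 10.3 ± 0.636 (SD, n = 4), but was also called in 1 wt DFL library at 4.73.

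Forebrain regions lay close to limb regions. Of the 8 FB regions, 6 were within 2.4 kb of a region that was called in all 8 limb libraries. R072 lay 0.6 kb beyond R071, R085 1.1 kb beyond R084, R088 and R089 1.3 and 2.0 kb beyond R087, R026 1.5 kb beyond R025 and R075 2.4 kb beyond R074. R057 and R009 lay 19.5 and 25.7 kb away. Of these neighbours, R084 was itself called in all 4 FB libraries. The median gap was 1.7 kb in the interval and 22.1 kb for 16892 such FB regions over the genome. Regions called in all 8 limb libraries numbered 24 in the interval and 43325 over the genome, and their density was not taken into account. This arrangement was looked for after the values were seen, and no test was made.

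**Figure D3:**
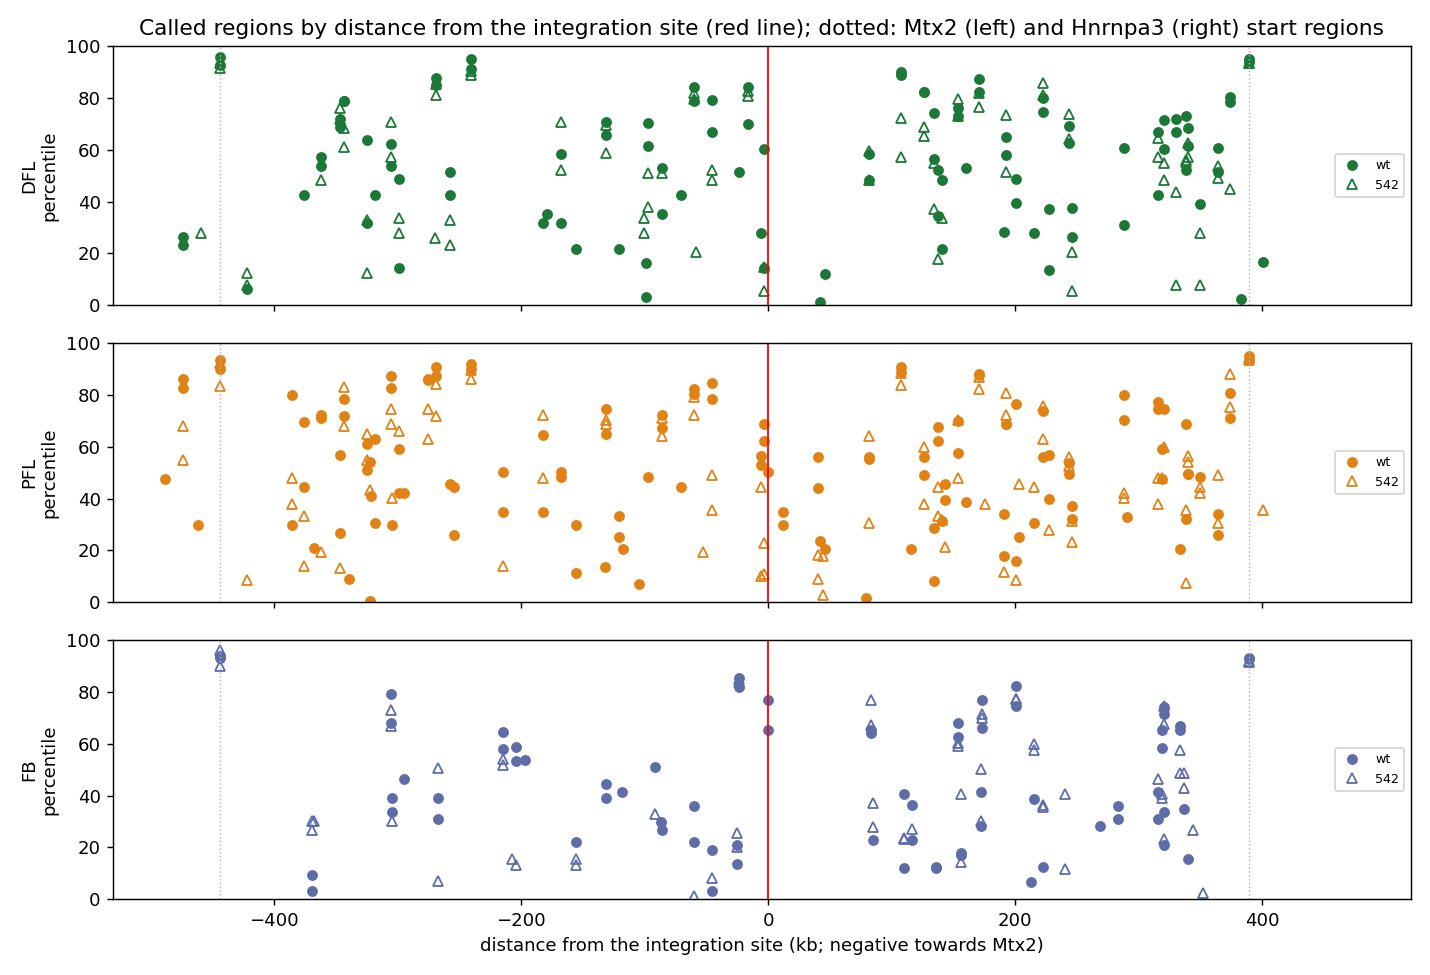
Percentile of each called region (y axis) against its distance from the integration site in kb (x axis), one panel per tissue, with 2 wt libraries (filled circles) and 2 libraries of 542 (open triangles). The dotted lines mark the start regions of Mtx2 and Hnrnpa3, which stand above percentile 80 in all 3 tissues and, in FB, R058 at 23.3 kb on the Mtx2 side comes next.

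The comparison of distal with proximal forelimb asks which T-DOM regions change where the domain is switched off. For regions called in all 8 limb libraries the log2 fold was compared by limma, after quantile normalisation, averaged over both genotypes. Of 24 such regions, 1 was higher in DFL and 1 was higher in PFL (4.17% each). Over the genome, 6.26% of 43325 regions were higher in DFL and 5.59% were higher in PFL, so that these shares were near the background. At an unadjusted p under 0.05 there were 5 and 4 regions. Within wt alone, R078 was higher in DFL and R019 higher in PFL (genome 1.18% and 0.882%), and within 542 alone none was higher in DFL at the threshold and R074 was higher in PFL (genome 3.02% and 2.72%). The difference between the genotypes did not pass at R078 (-0.55 on the log2 scale, limma interaction, adjusted p = 0.580) or at R019 (0.63, adjusted p = 0.546). The median log2 difference over the 24 was -0.02, against -0.01 over the genome. By side the medians were -0.12 for 10 regions before the site and 0.09 for 14 regions beyond it.

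R078 (chr2:75394969-75396489, intergenic, 126.5 kb beyond the site) was the region higher in DFL. Its fold was 8.26 and 8.85 in wt DFL, 6.09 and 5.89 in 542 DFL, 4.66 and 4.18 in wt PFL, and 5.54 and 4.10 in 542 PFL. All 4 DFL libraries lay above all 4 PFL libraries. The difference was 0.60 ± 0.11 (SE) on the log2 scale (limma, adjusted p = 0.0137). The region held 2 to 4 summits per library, and the strongest summit moved by up to 966 bp between libraries. With windows of 500 bp around summits in place of regions, 0 regions were higher in DFL. At a −log10 q of at least 10 and with the 50000 strongest regions, 13 and 11 regions could be fitted, R078 was not among them, and 0 were higher in DFL. Without wt DFL replicate 2 or wt PFL replicate 2 the adjusted p of R078 in limma was 0.0515 and 0.05195.

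R019, an intergenic region with the CTCF motif, was the region higher in PFL. Its fold was 5.13 and 4.90 in wt DFL, 4.98 and 6.61 in 542 DFL, 9.65 and 7.99 in wt PFL, and 7.33 and 6.25 in 542 PFL. The wt groups did not overlap, whereas the 542 groups did. DFL lay below PFL, at -0.58 ± 0.11 (SE) on the log2 scale (limma, adjusted p = 0.0186). In FB its fold was 7.40 ± 1.11 (SD, n = 4). The further wt DFL library had a fold of 8.78, above the 4 grouped DFL libraries, and with it the adjusted p was 0.055. With a normal score of the percentile the limma adjusted p was 0.0581, and with the 50000 strongest regions R019 could not be fitted. Without wt DFL replicate 1 or 2, wt PFL replicate 1 or 542 PFL replicate 1 the limma adjusted p ran from 0.0516 to 0.0651. R100 (chr2:75512496-75513267), also intergenic and in this fit, held the CTCF motif in its summit window as well. At R100 DFL lay above PFL, at 0.32 ± 0.098 (SE) on the log2 scale, and did not pass (limma, adjusted p = 0.0817).

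**Figure D4:**
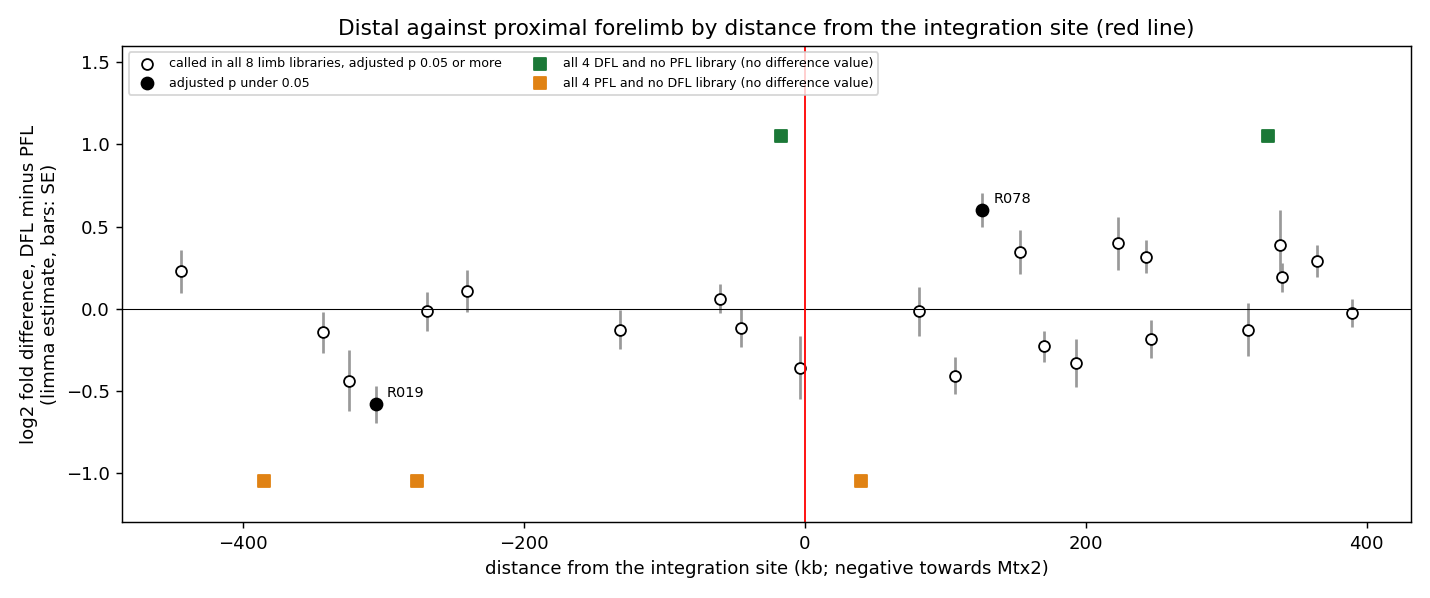
Log2 difference in fold between DFL and PFL (y axis, limma estimate with SE bars) for the 24 regions called in all 8 limb libraries, against the distance from the integration site in kb. Filled points passed the threshold (R078 at 0.60 and R019 at -0.58). Squares mark the position only of regions found in one limb segment and not in the other.

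Regions present in one limb segment and absent from the other were few. Of 94 regions called in any limb library, 2 were called in the 4 DFL libraries and never in PFL (2.13%, against 2.69% of 200720 over the genome), and 3 in the 4 PFL libraries and never in DFL (3.19%, against 1.95%). Within wt alone, 3 of 87 were in both DFL libraries without PFL (3.45%, against 7.99%) and 9 showed the reverse (10.3%, against 8.27%). Within 542, 7 of 66 (10.6%, against 9.82%) and 9 of 66 (13.6%, against 7.18%) did. R059 (chr2:75252595-75253305), in an intron of 2600014E21Rik 16.6 kb before the site, had folds of 8.79 and 6.48 in wt DFL and 8.66 and 8.40 in 542 DFL. Its percentile was 69.8 to 84.3 in these libraries, and it was not called in PFL or FB. This is the region with CAATAAA at its summit. R110 (chr2:75598454-75599689, 329.9 kb beyond the site) had folds of 5.59 and 6.79 in wt DFL and 2.77 and 4.34 in 542 DFL, with no overlap between the genotypes.

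Among the PFL regions, R023 (chr2:74993551-74994378, 275.6 kb before the site) had folds of 9.21 and 8.88 in wt PFL and 5.84 and 7.04 in 542 PFL. It lay 5.5 kb before R025, which was open in all limb libraries. The further wt DFL library called R023 at a fold of 3.32 (percentile 29.2), so that its absence from DFL did not hold there. R007 (chr2:74884296-74884717) had folds of 7.56 and 3.32 in wt PFL and 4.16 and 4.59 in 542 PFL. R064 (chr2:75309438-75309960, 40.1 kb beyond the site) was weak, at 3.98 and 4.56 in wt PFL and 3.37 and 2.996 in 542 PFL. With 1 PFL or DFL library left out, more regions met these rules. There were 4 for DFL without wt PFL replicate 1, 6 for PFL without wt DFL replicate 1, and 5 for PFL without 542 PFL replicate 1 or 2.

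**Figure D5:**
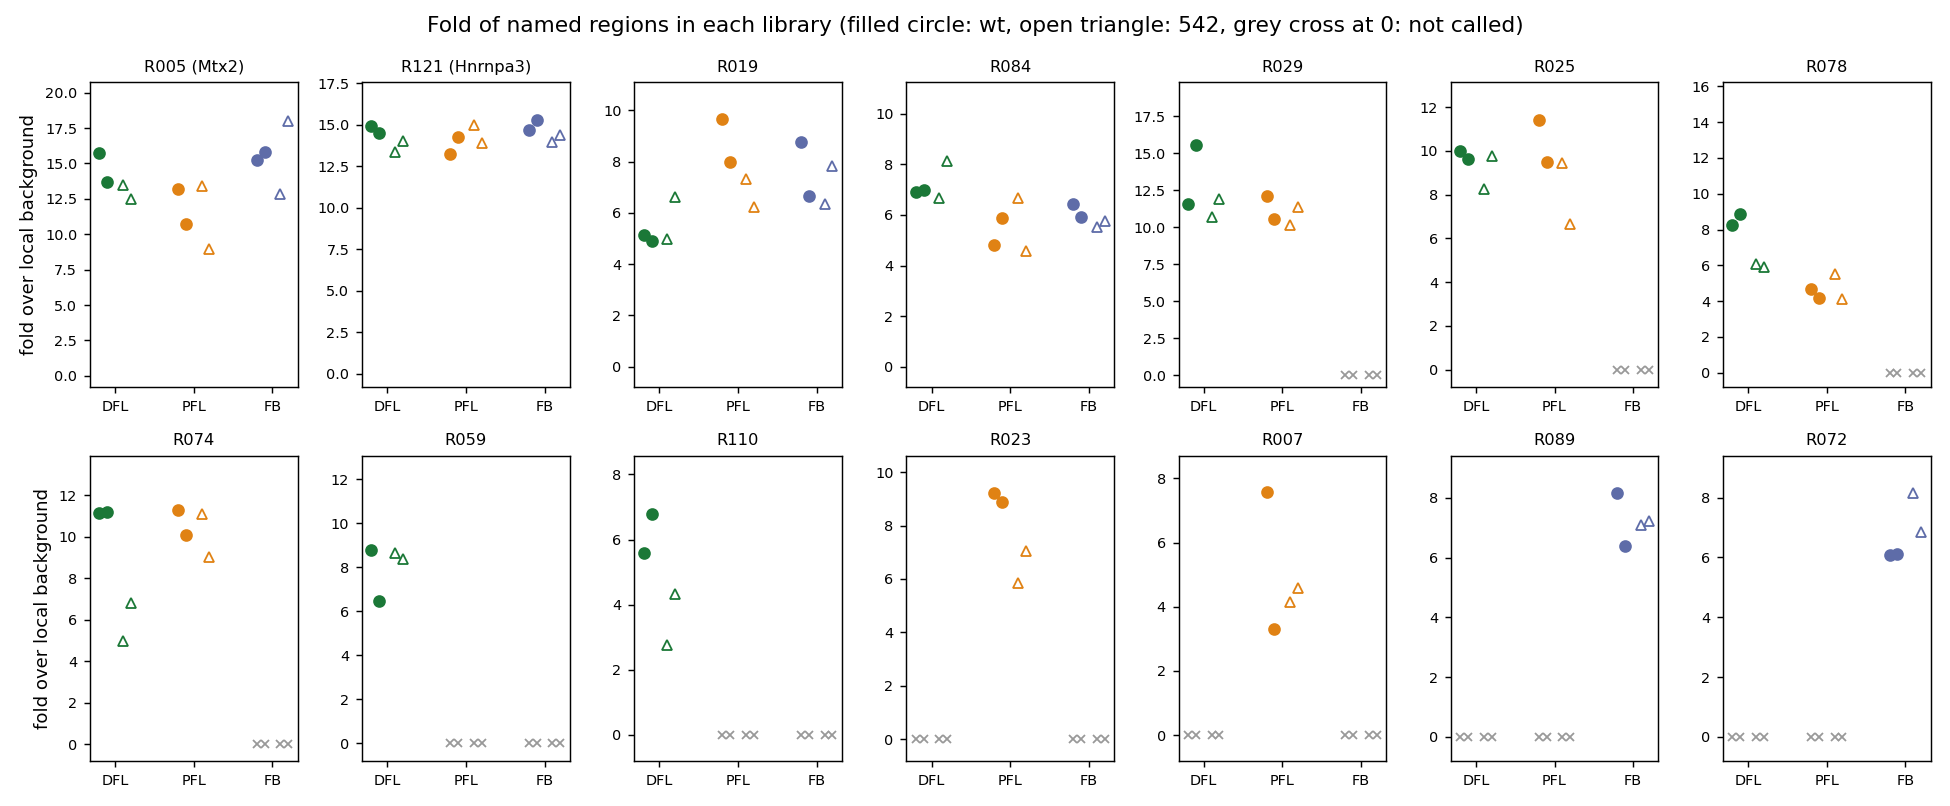
Fold over the local background (y axis) of 14 named regions in each grouped library, by tissue, with wt as filled circles and 542 as open triangles. Grey crosses at 0 mark libraries in which the region was not called. R005, R121, R019 and R084 have values in all tissues, R029, R025, R078 and R074 lack FB values, R059 and R110 have DFL values only, R023 and R007 PFL values only, and R089 and R072 FB values only.

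Around the integration site itself the pattern differed by tissue. R062 (chr2:75269297-75269884), which covers the site, was called in both wt FB libraries at folds of 8.17 and 6.24, in 1 wt PFL library at 4.22, in the further wt DFL library at 3.86, and in neither grouped wt DFL library. In 542 the insertion interrupts the region, so that its absence there cannot be compared. The nearest region towards Mtx2 that was called in at least 6 libraries, R061 (chr2:75266053-75266877, 3.1 kb from the site), was found in all 8 limb libraries and in no FB library. Its fold was 2.78 and 5.43 in wt DFL, 3.02 and 2.70 in 542 DFL, 5.83 and 5.06 in wt PFL, and 3.12 and 3.55 in 542 PFL. The PFL groups of both genotypes did not overlap, and the DFL groups did. The difference of 542 from wt in limb was -0.54 ± 0.19 (SE) on the log2 scale and did not pass (limma, adjusted p = 0.27).

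Towards Hnrnpa3 the nearest such region was R071 (chr2:75350747-75351574), 81.5 kb from the site. Between them lay R063, called in both wt PFL libraries and nowhere else, and R064 to R070, none of which was called in more than 4 libraries. R071 had folds of 4.76 ± 0.545 in DFL and 4.73 ± 0.891 in PFL (SD, n = 4 each), and 542 differed from wt by 0.12 ± 0.15 (limma, adjusted p = 0.774). At 16.6 kb from the insertion, R059 had overlapping values in wt and 542.

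The comparison of 542 with wt asks whether regions beside the inserted enhancer changed. No region of the interval passed in the limb (limma, 0 of 24, with 1 higher and 3 lower in 542 at an unadjusted p under 0.05) or over all tissues (limma, 0 of 4, with 0 at an unadjusted p under 0.05). Over the genome 0.00462% of 43325 regions were higher and 0.00692% lower in 542 in the limb, and 0.0915% and 0.116% of 28416 over all tissues. Within DFL alone and within PFL alone 0 of 24 passed (limma, with 0 higher and 3 lower in 542 at an unadjusted p under 0.05 in DFL, and 2 and 3 in PFL), against 0% in DFL and 0% higher and 0.00462% lower in PFL over the genome. R074, which had the lowest folds in 542 DFL, differed there by -0.85 ± 0.16 (SE) on the log2 scale (limma, unadjusted p = 0.000975, adjusted p = 0.2002), and in PFL by -0.06 ± 0.16 (adjusted p = 0.939). Within FB alone, 0 of 4 passed (limma, with 0 at an unadjusted p under 0.05), against 0.00704% in each direction over the genome. The smallest unadjusted p belonged to R056 (chr2:75224349-75224975), 45.0 kb before the site, which is named after its values were seen. Its fold was 7.47 and 6.13 in wt DFL, 4.61 and 4.53 in 542 DFL, 7.24 and 8.59 in wt PFL, and 4.75 and 3.99 in 542 PFL. Every 542 limb library lay below every wt limb library, and the difference was -0.64 ± 0.11 (SE) on the log2 scale (limma, adjusted p = 0.116). The interaction of tissue and genotype passed in 0 of 24 regions (limma, with 2 in each direction at an unadjusted p under 0.05) and in 0% of regions over the genome.

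No region was called in all 6 libraries of one genotype and in none of the other, where the genome shares were 0.0129% for wt and 0.00799% for 542. Within a tissue, regions called in both wt and no 542 library numbered 5 of 65 in DFL (7.69%, against 6.10% over the genome), 7 of 83 in PFL (8.43%, against 8.01%) and 4 of 48 in FB (8.33%, against 4.21%). The FB count includes R062, which cannot be compared, and without it there were 3 of 47 (6.38%). The reverse numbered 1 in each tissue, against 2.00%, 1.37% and 2.15% over the genome. The wt libraries were deeper than the 542 libraries in each tissue on average, and the part of depth in these counts was not tested. Among the DFL regions was R002 (chr2:74795485-74796013), which lies between Hoxd1 and Mtx2 and was called in all 4 PFL libraries. Its fold was 3.08 and 3.50 in wt DFL, 8.20 and 9.05 in wt PFL, and 5.15 and 6.19 in 542 PFL. The FB regions were R039, R062, R080 and R103, of which R039 is the shared start of 2600014E21Rik and Gm13652.

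The tissue labels were checked at the starts of marker genes. All 4 distal limb genes (Hoxa13, Hoxd13, Hoxd12 and Sall1) had a region in all DFL and all PFL libraries. Their median percentile was 77.7 in DFL, 52.5 in PFL and 42.7 in FB. In FB, Hoxd12 had no region and Hoxa13 had one in wt replicate 1 only. Hoxd13 (percentiles 23.7 to 42.7) and Sall1 (62.5 to 70.8) had one in every FB library. Hoxd12 in 542 DFL (26.1 and 21.1) lay within its PFL range (9.68 to 30.5). Sall1 in wt PFL replicate 2 (73.0) lay within its DFL range (68.5 to 73.7). The 6 forebrain genes given here (Emx2, Six3, Dlx1, Dlx2, Neurog2 and Tbr1) had a region in all FB libraries, and 4 or 5 of them had one in each grouped limb library, where Six3 had none. Their median percentile was 62.7 in DFL, 69.2 in PFL and 67.4 in FB. Limb mesenchyme genes (Prrx1, Prrx2, Twist1, Tbx5 and Msx1) had medians of 61.4, 68.9 and 65.8. Prrx1, Twist1 and Msx1 were called in every FB library and Tbx5 in none. Neither list separated limb from FB by this median, which leaves out genes that were not called. Percentiles summed per library, with uncalled genes adding nothing, were 271 to 313 in DFL, 272 to 335 in PFL and 204 to 257 in FB for limb mesenchyme. By this sum FB lay below both limb segments. For the forebrain list the sums overlapped, at 302 to 351, 270 to 326 and 341 to 388. Proximal limb genes (Meis1, Meis2, Shox2 and Tbx18) had regions in every library, with a median percentile of 77.2 in DFL and 63.7 in PFL, and did not separate the limb segments. Of other cell types, 2 or 3 of the 3 muscle genes, at most 2 of the 3 ectoderm genes, at most 1 of the 3 blood genes and 1 or 2 of the 3 endothelium genes had a region in a limb library. Some of these differed by genotype. Myf5, a muscle regulator, was called in both grouped wt DFL libraries (percentiles 57.8 and 66.1) and in neither 542 DFL library. In PFL it was called in both genotypes, at 27.6 and 40.2 in wt and 21.3 and 17.1 in 542. The other muscle genes, Pax3 and Myod1, were called in every library of both genotypes. Hbb-bs, a globin gene of red blood cells, was called in 4 of 6 libraries of 542 and in no wt library. Allele 542 itself carries an HBB promoter, and the part of this promoter or of the mapping genome in these calls was not tested. Of the other blood genes, Gata1 was called in no library. Among grouped libraries, Spi1 was called in wt DFL replicate 1, wt PFL replicate 2 and 542 FB replicate 2. Tie1, an endothelial receptor, was called in 2 libraries of 542 and in no wt library. Of the other endothelium genes, Cdh5 went the other way, called in wt PFL replicate 2 and wt FB replicate 1 and in no 542 library. Kdr was called in every library. The part of these marker genes in the results, the comparison of 542 with wt included, was not tested. A region is a property of the cell mixture, and fewer open cells and less open chromatin per cell cannot be told apart.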

How the data were processed

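ATAC-seq was measured by the authors in 13 libraries. They trimmed reads with Cutadapt, aligned pairs with bowtie2 (wt on mm10, 542 on the mutant genome), removed poorly mapped, mitochondrial and duplicate reads, and called peaks in each library alone, without a control, with MACS2, listing summits separately. The deposited fold is a ratio of tags at the summit to local background in the same library. Significance was deposited by the same caller as a −log10 p-value and as its −log10 q-value, of which the lowest was 1.30 or 1.31 in every library. The deposited score was not used. No value is normalised between libraries.

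Summit lines that shared a start and an end became 1 region, with the values of its strongest summit. Regions of all libraries were merged at an overlap of 1 bp, and those with a summit in the window were kept. Coordinates of 542 beyond the insertion (75269597 to 75273815 in the mutant genome) were reduced by 4218 bp. Annotation was GENCODE M21 on GRCm38. The log2 fold was quantile normalised and fitted with limma 3.58.1 in R 4.3.3 (group means, eBayes), over all regions of the genome called in every library of the fit, 43325 for 8 limb libraries and 28416 for 12, with Benjamini-Hochberg adjustment over all of them and a threshold of 0.05. Other counts have no test. Tables and figures were made in Python 3.11.15 (pandas 2.3.3, numpy 2.4.6, matplotlib 3.10.9, scipy 1.17.1). The fit was tested on simulated data. Depth is estimated from the caller's background, and no read total was used, so counting error of a single fold is not given.

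The members, gene lists and naming rule were chosen with earlier results of these data known. Named were regions within 500 bp of a transcript start, the integration site and the nearest region on each side called in at least 6 libraries, other regions called in all 12 libraries, every region past the threshold between DFL and PFL, every region in all libraries of one limb segment and none of the other, up to 6 per direction in all limb or all FB libraries and none of the other, and every region that met the same rules between 542 and wt. Alternatives were no scaling, median centring, a normal score of the percentile, uncalled regions set to the lowest fold, a −log10 q of at least 10, the 50000 strongest regions, coverage of 50% of a merged region, windows of 500 bp, separate summits, the further wt DFL library, each library left out, and a replicate block. The FB count without the region over the site was added after seeing the data. The study names proximal limb enhancers in this interval, but their coordinates were not used here and no region was matched to one. One gene of the forebrain marker list is not reported here.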

Additional observations from a re-analysis of the deposited data

Results flagged for a closer look

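At 1 region of the Mtx2 to Hnrnpa3 interval the DFL and PFL libraries were ordered in opposite ways in wt and 542. At R106 (chr2:75584901-75585865, 315.6 kb beyond the integration site) both wt DFL libraries had a lower fold than both wt PFL libraries, 3.81 and 6.13 against 6.60 and 6.93, and both 542 DFL libraries had a higher fold than both 542 PFL libraries, 4.98 and 5.85 against 4.16 and 4.59. The difference between the genotypes was 0.855 on the log2 scale (limma interaction, unadjusted p = 0.0306, adjusted p = 0.565) and did not pass. DFL and PFL did not differ at the threshold within wt (-0.55, limma adjusted p = 0.261) or within 542 (0.30, adjusted p = 0.527). In the further wt DFL library the fold was 11.9.

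The further wt DFL library, which enters no comparison, called 3 regions that no grouped library called. Their folds were 2.637 at R047 (chr2:75174982-75175181), 2.785 at R052 (chr2:75199433-75199632) and 4.284 at R069 (chr2:75334378-75334645), at percentiles of 11.6, 15.7 and 46.5 of that library. It was also the deepest library, at an estimated 77980000 tags, and the part of depth was not tested.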

How the results depend on the processing

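Counts are of regions of the Mtx2 to Hnrnpa3 interval. With uncalled regions set to the lowest fold of the library, 51 regions entered the limb fit, of which 7 were higher in DFL and 9 higher in PFL (genome 14.0% and 13.0%), and 66 entered the fit of all tissues, of which 42 were higher in limb, 13 higher in FB and 1 higher in wt (genome 35.3%, 30.7% and 1.68%). A region absent from a group takes the lowest value there by construction. Regions higher in DFL numbered 0 at a −log10 q of at least 10, with the 50000 strongest regions and with 500 bp windows. Regions higher in PFL numbered 0 with the normal score and with the 50000 strongest regions. With a library left out, counts ran from 0 to 2 for DFL, 0 to 2 for PFL and 0 to 2 for limb over FB (1 without wt FB replicate 2, 2 without 542 FB replicate 1).

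With the 50000 strongest regions, and at a −log10 q of at least 10, regions in all DFL and no PFL library numbered 1 and 1, in all limb and no FB library 9 and 9, and in all FB and no limb library 3 and 5. Where 50% of the merged region had to be covered, limb regions numbered 9 and PFL regions 5. With a library left out, DFL regions numbered 2 to 4 and PFL regions 3 to 6. The excess of limb over FB in regions per 10000 was 2.5 and 2.544 in place of 1.82. The share on the Hnrnpa3 side differed between DFL and PFL by 9.608, 8.894 and, with separate summits, 4.215 points in place of 1.24, and between limb and FB by -16.36 and -12.91 in place of -5.93.

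Some small differences changed sign. DFL minus PFL was 0.04776 at R025, 0.02101 at R071 and 0.007278 at R121 without scaling, and 0.02423 and 0.05806 at R025 and R071 with the normal score. It ran over libraries left out from -0.11 to 0.07218 at R025, -0.18 to 0.1097 at R071 and -0.0679 to 0.01273 at R121. Limb minus FB at R121 was -0.04355 without scaling. For 542 minus wt, R071 gave -0.1006 with the normal score and from -0.02029 to 0.26 over libraries left out. The cause was not tested. No call was made on any of these.

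Deviations of samples with the same replicate number correlated at -0.036 to 0.016. No pairing by number was seen on this measure, which does not show whether samples with the same number were collected together. With the replicate block the counts were 1 higher in DFL and 1 higher in PFL, and 0 in the fits of limb against FB, of 542 against wt and of the interaction, as without it.

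Precision is limited by 2 replicates per group, by the calling limit, below which a region has no value, and by depth that differs between genotypes.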

Other observations

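Several regions of limb cells in the interval that the naming rule did not pick are given here as values. R056, in an intron of 2600014E21Rik, was called in all 8 limb libraries and also in 3 of 4 FB libraries, where its fold was 2.92 and 2.41 in wt and 2.77 in 1 library of 542. R060 (chr2:75263759-75264312), 5.6 kb before the integration site, was called in all 4 PFL libraries, at folds of 4.48 and 4.61 in wt and 4.55 and 3.01 in 542, and in 1 wt DFL library at 3.22. R015 (chr2:74944982-74945854) was called in all limb libraries and in no FB library, at folds of 3.97 ± 1.25 in DFL and 5.07 ± 0.60 in PFL (SD, n = 4 each).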
